A study of Rattus norvegicus with 16 samples.

Results

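The subject is a list of 10 rat genes that mark pericytes and vascular smooth muscle, the mural cells that wrap brain vessels: Kcnj8, Abcc9, Pdgfrb, Rgs5, Anpep, Cspg4, Notch3, Acta2, Tagln and Myh11. They were found through the transcript accession of each array probe, which gave 13 probes and at least 1 tested probe for all 10 genes, among 20471 genes tested in all. Of these 20471, 12610 have a symbol. The others were counted by accession, so some may stand for the same gene. The list was drawn up with earlier results of these same arrays known, Kcnj8 being singled out in it. The differences of its members between groups are therefore given as descriptions, with no p-value, while adjusted p-values are given for other genes of the same cells and pathways, whose lists were also made with earlier results known. The list has no threshold, so no gene stands just inside or outside it.

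Brain RNA of rats aged 8 weeks was hybridised to single-colour arrays, 1 per sample. The groups were 5 normal controls with no arterial occlusion, 5 rats given saline after MCAo (blockage of the middle cerebral artery, which models ischaemic stroke), and 6 given, after MCAo, human umbilical mesenchymal stem cells into a vein (IV-hUMSC, 1000000 cells). Tissue of all groups is labelled with the time point of 72 hours after MCAo. The labels name no sham operation, hemisphere, brain region, sex or time of infusion, so surgery and occlusion cannot be told apart. The probes were designed for rat transcripts, and whether RNA of the infused human cells bound to them was not tested.

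Pericytes share a basement membrane with the capillary endothelium, and smooth muscle cells ring the arterioles. Both set vessel diameter, and pericytes help to keep the blood-brain barrier closed. Endothelial PDGF-B holds pericytes to the vessel through the receptor Pdgfrb, Notch3 keeps arterial smooth muscle differentiated, and the potassium channel formed by Kcnj8 (Kir6.1) and Abcc9 (SUR2) opens when cellular ATP falls and relaxes the cell. Several of these markers are not exclusive to mural cells: Anpep (CD13) is also made by myeloid cells, Cspg4 (NG2) by oligodendrocyte precursors and Pdgfrb by fibroblasts.

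On each array 72.3% to 77.6% of probes stood well above background, and the leading probe of each of the 10 genes was so on all 16 arrays. The labels name a blood RNA kit, although the tissue is brain. The mean log2 level of 9 neuronal genes was 1.04 to 1.99 on the 16 arrays, and that of 7 blood genes was -2.40 to 0.44. Levels throughout are the log2 processed signal minus the array's 75th percentile, so a level of 0 equals that percentile, and levels are compared within a probe only. A gene was called when its adjusted p in limma, over all 20471 genes, was under 0.05. Saline replicates 1 and 5 lay nearest the controls on the first principal component, at -26.4 and -43.5, against 31.1 to 32.5 for the other saline arrays and -70.0 to -63.4 for controls. The mean of 11 macrophage and dendritic cell genes was -0.92 and -1.94 on those 2 arrays and 0.55 to 0.68 on the other saline arrays. The values of Kcnj8, Pdgfrb, Anpep, Cspg4 and Tagln are given with and without them, as are those of several other genes.

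The promoter windows of Kcnj8, the one member whose hUMSC and saline arrays did not overlap, and of Acta2, the classical smooth muscle gene, are shown from 250 bases before to 50 after the start site. They come from RefSeq, build GRCr8, both on the minus strand, at chr4:177246499-177246798 and chr1:241172454-241172753. Capitals mark CArG boxes, the element bound by serum response factor in smooth muscle genes.
Kcnj8: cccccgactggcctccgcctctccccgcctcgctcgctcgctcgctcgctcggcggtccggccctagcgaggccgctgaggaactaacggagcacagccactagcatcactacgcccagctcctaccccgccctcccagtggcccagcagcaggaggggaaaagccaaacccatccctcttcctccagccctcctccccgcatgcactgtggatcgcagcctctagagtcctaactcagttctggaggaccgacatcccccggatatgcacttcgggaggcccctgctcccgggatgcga
Acta2: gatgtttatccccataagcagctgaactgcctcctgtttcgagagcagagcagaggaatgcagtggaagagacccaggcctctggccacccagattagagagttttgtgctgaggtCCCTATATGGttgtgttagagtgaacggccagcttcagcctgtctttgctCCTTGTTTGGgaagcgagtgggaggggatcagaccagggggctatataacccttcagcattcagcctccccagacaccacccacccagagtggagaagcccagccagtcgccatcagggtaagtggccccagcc
The CArG box was searched on both strands, with its 6 inner bases all A or T or, in a form chosen after the strict search, with 1 of them G or C. Promoters of 7 of the 10 members were in the table. None held the strict form, which stood in 1.64% of all 33469 promoters. Acta2 held 2 copies of the relaxed form, which stood in 9.42% of promoters, with 2 or more copies in 0.846%. Kcnj8, Abcc9, Rgs5, Anpep, Cspg4 and Notch3 held none in this window, and neither did the 12 contractile smooth muscle genes with a promoter in the table. These are matches of letters, and binding was not tested.

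The 10 genes did not move as a block. Kcnj8 was lower after occlusion with saline and higher after occlusion with hUMSC than in controls. Tagln, Anpep and Pdgfrb had their lowest mean in controls and their highest with hUMSC, and Cspg4 was higher in both occluded groups. Rgs5, Abcc9, Notch3, Acta2 and Myh11 overlapped between all groups. In bulk tissue, a change in the number of cells of a type and a change in RNA per cell cannot be told apart.

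In saline against control, which asks what differed 72 hours after occlusion, 4 of the 10 members were called, 3 higher and 1 lower, where 27.3% of all genes were called, 14.3% higher and 13% lower. All 4 were also without overlap between the groups, as 9.85% of all genes were higher and 8.55% lower. The median log2 difference of all 10 members was 0.11, against -0.04 over all genes. In hUMSC against saline, which asks what the infusion changed, 3 members were called, all higher, where 12.8% of all genes were called, 4.86% higher and 7.96% lower. The median of all 10 members was 0.24, against -0.07 over all genes. In hUMSC against control 5 members were called, all higher, where 62% of all genes were called, 24.7% higher and 37.3% lower. The medians were 0.36 over all 10 members and -0.13 over all genes. All 5 called members were without overlap, as 19.2% of all genes were higher and 26.9% lower. Since the members were chosen on these contrasts, nothing is read from the counts. The 3 comparisons share groups of arrays and are not independent of each other. Of the genes called, 52.4%, 37.9% and 39.8% were higher in the order above, and 32.7%, 50.8% and 35.1% when arrays were scaled to their median instead.

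**Figure D1:**
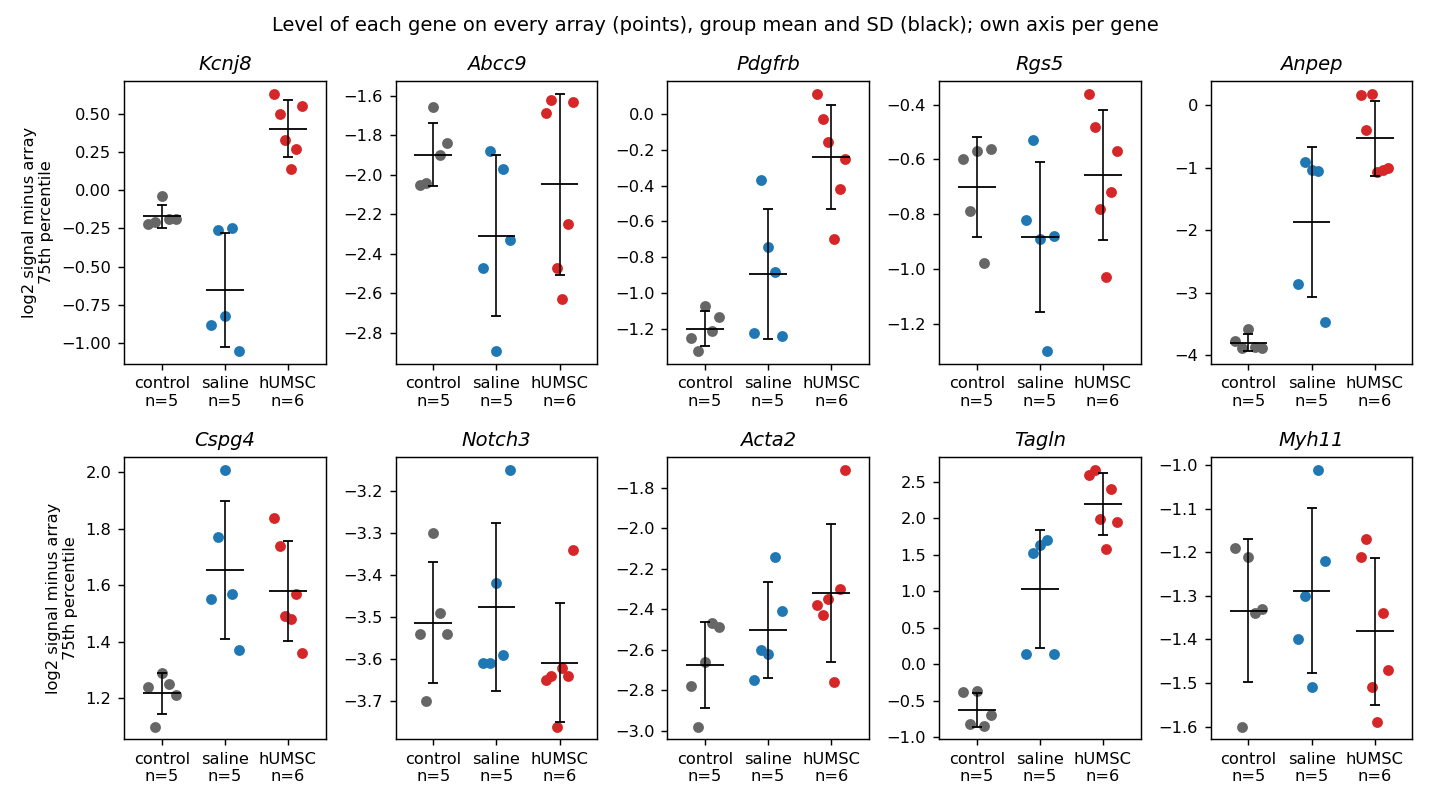
Level of each of the 10 genes (log2 processed signal minus the array's 75th percentile, own axis per gene) on each of 5 control, 5 saline and 6 hUMSC arrays as points, with the group mean and SD in black. Kcnj8 on the hUMSC arrays, at 0.14 to 0.63, lies above every other array, while Acta2, Myh11, Notch3, Rgs5 and Abcc9 overlap between the groups.

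Kcnj8 encodes the pore of the vascular ATP-sensitive potassium channel and is among the sharpest pericyte markers of brain. Its level on control arrays 1 to 5 was -0.22, -0.21, -0.04, -0.19 and -0.19. On saline arrays 1 to 5 it was -0.88, -0.26, -0.82, -0.25 and -1.05. On hUMSC arrays 5 to 10 it was 0.63, 0.50, 0.33, 0.14, 0.27 and 0.55. All hUMSC arrays lay above all controls and all saline arrays. All saline arrays lay below all controls, but replicates 2 and 4 only just, at -0.26 and -0.25 against a lowest control of -0.22. The low saline arrays were replicates 1, 3 and 5. The spread was widest in saline, with an SD of 0.37 (n = 5), against 0.07 (n = 5) in controls and 0.19 (n = 6) in hUMSC.

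The mean of Kcnj8 was lower by 0.48 ± 0.15 in saline than in control (log2 difference ± SE), 2.08-fold higher in hUMSC than in saline (1.06 ± 0.14), and 1.49-fold higher in hUMSC than in control (0.57 ± 0.14). Of all genes, 1.24% were higher and 2.95% lower in hUMSC than in saline without overlap, and Kcnj8 was the member among them. Slide 1 held 3 control, 3 saline and 2 hUMSC arrays, and slide 2 held 2 control, 2 saline and 4 hUMSC arrays, so group and slide partly go together. The difference of Kcnj8 between hUMSC and saline was 0.85 without both saline replicates 1 and 5, 1.22 within slide 1 and 0.97 within slide 2, where it was not called. These values come from the arrays on which the gene was chosen, and nothing is read from them. The lower level in saline was not past the threshold without control replicate 3 (-0.45), without saline replicate 3 (-0.44), without both saline replicates 1 and 5 (-0.27), within slide 1 (-0.50), within slide 2 (-0.45) or with the replicate number as a block (-0.48). Between hUMSC and control the difference was 0.72 within slide 1 and 0.52, not past the threshold, within slide 2.

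Abcc9, the regulatory subunit that pairs with Kcnj8, is its next protein-coding neighbour on chromosome 4. Its levels were -2.05, -2.04, -1.66, -1.90 and -1.84 on control arrays, and -2.47, -1.88, -2.89, -1.97 and -2.33 on saline arrays. On hUMSC arrays 5 to 10 they were -1.69, -1.62, -2.47, -2.63, -2.25 and -1.63. The same saline replicates, 1, 3 and 5, were low for both subunits, but hUMSC replicates 7, 8 and 9 fell below every control for Abcc9 and above every control for Kcnj8. The difference of Abcc9 was -0.41 ± 0.22 in saline against control, 0.26 ± 0.21 in hUMSC against saline and -0.15 ± 0.21 in hUMSC against control, none past the threshold. Its 2 other probes were well above background on 2 arrays each and were not used. Deviations from group means of the 2 subunits correlated with a Pearson r of 0.76 over the 16 arrays, as a description. This was not particular to the pair. The r of Kcnj8 was also 0.76 with Pdgfrb and 0.71 with both Anpep and Tagln, and lowest with Notch3 (-0.25). With levels in place of deviations, the r of the 2 subunits was 0.53. The points share array, scaling and RNA sample.

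The other ATP-sensitive channel, of neurons and endocrine cells, is made of Kcnj11 (Kir6.2) and Abcc8 (SUR1). Against control, Kcnj11 fell in hUMSC by 0.66 ± 0.12 (limma, adjusted p = 0.000215) and Abcc8 by 0.73 ± 0.12 (adjusted p = 0.000134). Each was below all 5 controls on all 6 hUMSC arrays. Trpm4, a cation channel that can join with SUR1, fell by 0.51 ± 0.10 in saline (adjusted p = 0.00308) and by 0.55 ± 0.09 in hUMSC (adjusted p = 0.00019) against control. In hUMSC against saline Abcc8 fell by 0.46 ± 0.12 (adjusted p = 0.0308), and Kcnj11 differed by -0.35 ± 0.12 (adjusted p = 0.0573). That fall of Abcc8 was not past the threshold without saline replicate 1 (-0.44), saline replicate 5 (-0.38), hUMSC replicate 5 (-0.39), hUMSC replicate 6 (-0.40) or hUMSC replicate 7 (-0.44), and it was -0.34 and not past it without both saline replicates 1 and 5. Without those 2 arrays Kcnj11 and Abcc8 were past the threshold in saline against control, at -0.45 and -0.39. The mean of 9 neuronal genes moved the same way, spanning 1.94 to 1.99 on control arrays and 1.04 to 1.44 on hUMSC arrays, and its part in these falls was not tested.

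**Figure D2:**
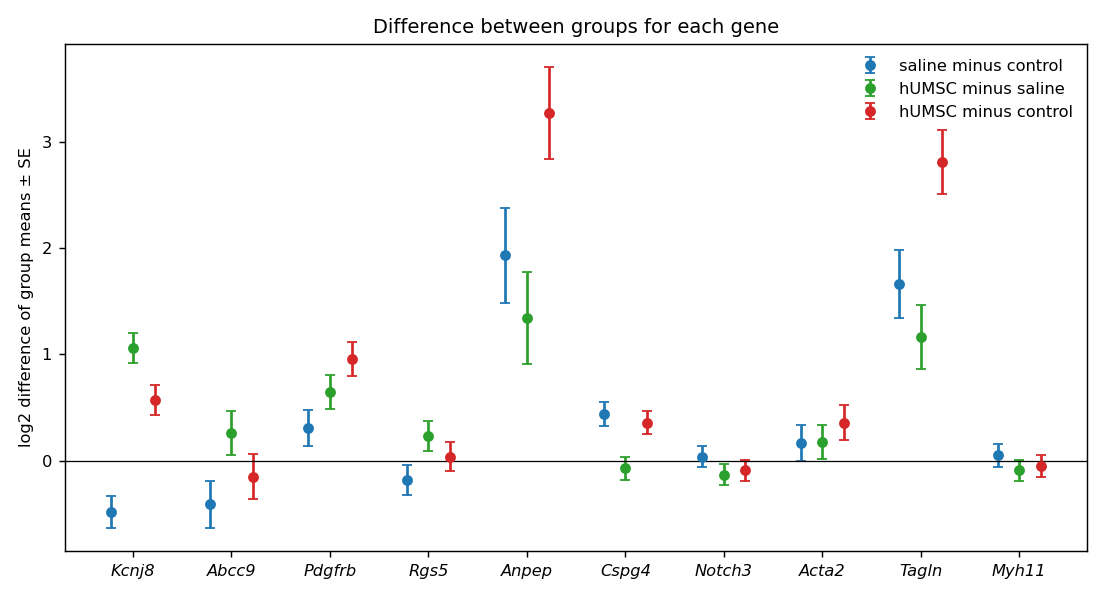
Log2 difference of group means (± SE of the limma model) of the 10 genes in the 3 comparisons of 5 control, 5 saline and 6 hUMSC arrays. Kcnj8 has a negative difference in saline against control (-0.48) and positive ones in the others, while Anpep and Tagln have the highest differences in hUMSC against control, 3.27 and 2.81.

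Pdgfrb, the receptor through which endothelial PDGF-B recruits pericytes, was -1.25, -1.32, -1.07, -1.21 and -1.13 on control arrays. It was -1.22, -0.37, -0.74, -0.88 and -1.24 on saline arrays, and 0.11, -0.03, -0.16, -0.70, -0.42 and -0.25 on hUMSC arrays 5 to 10. Saline replicates 1 and 5 lay among the controls and the other saline arrays above them. All hUMSC arrays lay above all controls. The differences were 0.31 ± 0.17 in saline against control, which was not called, 0.65 ± 0.16 in hUMSC against saline and 0.96 ± 0.16 in hUMSC against control, which were. Against saline the groups overlapped, and the difference was not past the threshold without saline replicate 1 (0.57), saline replicate 5 (0.56), hUMSC replicate 5 (0.58), hUMSC replicate 6 (0.61) or hUMSC replicate 7 (0.63). Without both saline replicates 1 and 5 it was 0.42 and not past it either, while the difference of saline from control became 0.53 and was past it. Deviations of Pdgfrb from its group means correlated with those of 10 fibroblast genes with a Pearson r of 0.92 over the 16 arrays. The r was 0.83 with contractile smooth muscle genes, 0.80 with endothelial genes, 0.79 with 13 other pericyte genes and -0.76 with neuronal genes. In hUMSC against control all 10 fibroblast genes were called higher, where 24.7% of all genes were. The part of fibroblasts in the level of Pdgfrb was not tested.

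Notch3, the receptor of arterial mural cells, had means of -3.52 ± 0.14 (SD, n = 5) in control, -3.48 ± 0.20 (SD, n = 5) in saline and -3.61 ± 0.14 (SD, n = 6) in hUMSC. Its differences between groups were 0.04 ± 0.10, -0.13 ± 0.10 and -0.09 ± 0.10 (SE) for saline against control, hUMSC against saline and hUMSC against control. No group stood apart.

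Of 16 tested companions in PDGF and Notch signalling, 2 rose and 2 fell in saline against control, 1 rose in hUMSC against saline, and 6 rose and 3 fell in hUMSC against control. Thus 25%, 6.25% and 56.2% were called, where 27.3%, 12.8% and 62% of all genes were. Jag1, a ligand of Notch3, rose by 0.48 ± 0.13 in saline (limma, adjusted p = 0.0169; 0.41 and not past the threshold without saline replicate 2) and by 0.76 ± 0.13 in hUMSC (adjusted p = 0.000142) against control. Rbpj, the DNA-binding partner of activated Notch, rose by 0.66 ± 0.12 in hUMSC against control (adjusted p = 0.00036). Heyl, a Notch target of mural cells, fell by 0.37 ± 0.08 in saline (adjusted p = 0.00683) and by 0.31 ± 0.08 in hUMSC (adjusted p = 0.00381) against control. Pdgfb, the ligand of Pdgfrb, differed by -0.07 ± 0.21, 0.04 ± 0.20 and -0.03 ± 0.20 in saline against control, hUMSC against saline and hUMSC against control, with adjusted p of 0.831, 0.882 and 0.912.

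Rgs5, a regulator of G protein signalling and a pericyte marker, had means of -0.70 ± 0.18 (SD, n = 5) in control, -0.88 ± 0.27 (SD, n = 5) in saline and -0.66 ± 0.24 (SD, n = 6) in hUMSC. Its highest array was hUMSC replicate 5 at -0.36 and its lowest saline replicate 4 at -1.30. The differences were -0.18 ± 0.14, 0.23 ± 0.14 and 0.04 ± 0.14 (SE) for saline against control, hUMSC against saline and hUMSC against control. None was past the threshold in any of the settings tried.

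Anpep, a surface peptidase of pericytes and of myeloid cells, was -3.77, -3.89, -3.58, -3.86 and -3.89 on control arrays. It was -2.86, -0.91, -1.04, -1.06 and -3.47 on saline arrays and 0.17, -0.39, 0.18, -1.07, -1.04 and -1.01 on hUMSC arrays 5 to 10. All occluded arrays lay above all controls, but saline replicates 1 and 5 by far less than the rest. The mean was 3.82-fold higher in saline than in control (1.93 ± 0.45) and 9.67-fold higher in hUMSC than in control (3.27 ± 0.43), both called. Without both saline replicates 1 and 5 the former difference was 2.80. Between hUMSC and saline the difference was 1.34 ± 0.43 and not called. It was called without saline replicate 2 (1.58), saline replicate 3 (1.55), saline replicate 4 (1.54), hUMSC replicate 8 (1.45) or hUMSC replicate 10 (1.44), and it was 0.47 and not called without both saline replicates 1 and 5. The 11 macrophage and dendritic cell genes averaged -3.46 to -3.08 on control arrays, -1.94 to 0.68 on saline arrays and 0.55 to 1.65 on hUMSC arrays. Deviations of Anpep from its group means correlated with those of this list with a Pearson r of 0.97 over the 16 arrays, a description of arrays that share sample and scaling. The r was 0.84 with the fibroblast list and -0.94 with the neuronal list. Within groups, Anpep spread most in saline, with an SD of 1.21 against 0.13 in control and 0.60 in hUMSC. The SD of the macrophage and dendritic cell list was 1.17, 0.16 and 0.46 in the same order. Saline replicates 1 and 5 thus weigh heavily in these r, which were not computed without them. The part of myeloid cells in the level of Anpep was not tested.

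Cspg4, the NG2 proteoglycan, had levels of 1.24, 1.10, 1.29, 1.25 and 1.21 on control arrays, 1.55, 1.77, 2.01, 1.57 and 1.37 on saline arrays and 1.84, 1.74, 1.49, 1.48, 1.57 and 1.36 on hUMSC arrays 5 to 10. All occluded arrays lay above all controls, and the occluded groups overlapped. It was 1.35-fold higher in saline (0.44 ± 0.11) and 1.29-fold higher in hUMSC (0.36 ± 0.11) than in control, and differed by -0.07 ± 0.11 between hUMSC and saline. Without both saline replicates 1 and 5 the differences of saline from control and of hUMSC from saline were 0.56 and -0.20. Against control, the hUMSC difference was 0.26 and not past the threshold without hUMSC replicates 5 and 6. The 8 oligodendrocyte precursor genes averaged 0.31 to 0.38 on control arrays, 0.30 to 0.63 on saline arrays and 0.26 to 0.66 on hUMSC arrays. In hUMSC against control 3 of these 8 were called higher and 3 lower, where 62% of all genes were called. Deviations of Cspg4 from its group means correlated with those of this list with an r of 0.81 over the 16 arrays. The r was 0.88 with the PDGF and Notch signalling list and 0.80 with the fibroblast list. It was 0.74 with the macrophage and dendritic cell list and -0.74 with the neuronal list. The part of oligodendrocyte precursors in the level of Cspg4 was not tested.

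**Figure D3:**
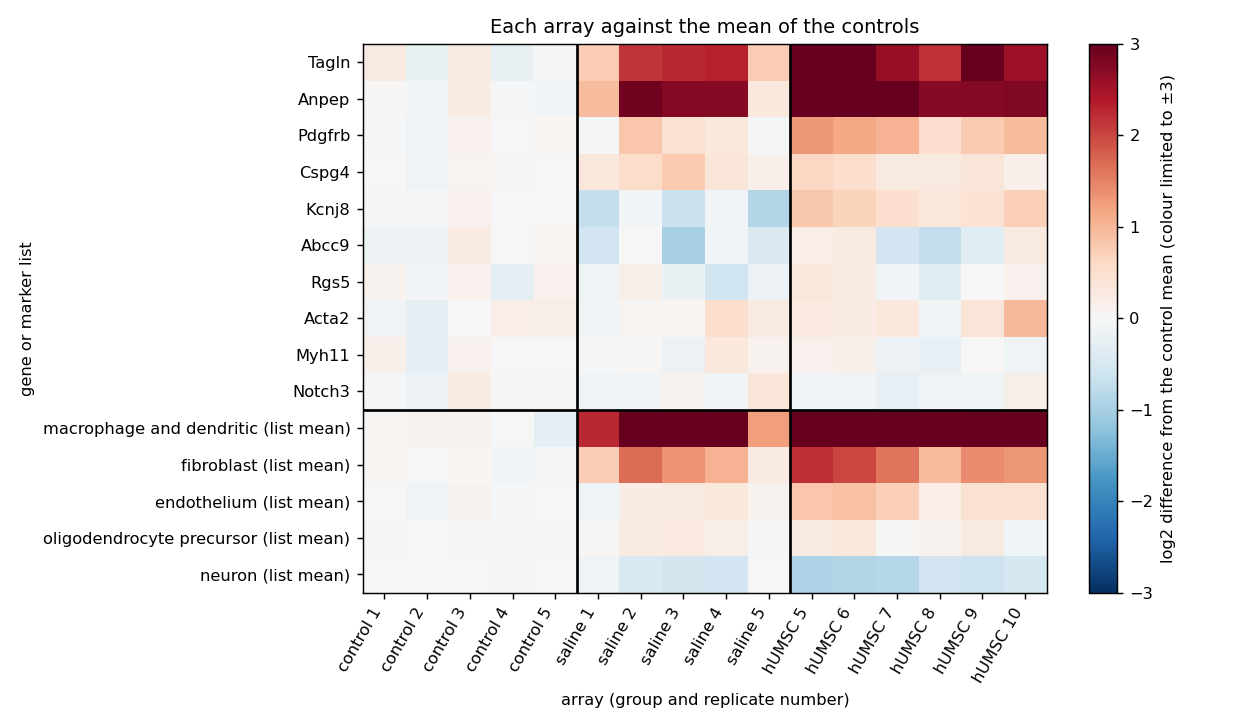
Log2 difference of each array from the control mean for the 10 genes (above the line) and for the means of 5 marker lists (below it), with arrays in columns and colour limited to ±3. Tagln, Anpep and Pdgfrb are weakly raised or at control level on saline replicates 1 and 5, the arrays with the lowest macrophage means of the occluded groups (-0.92 and -1.94 as levels), and Kcnj8 is raised on every hUMSC array.

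The contractile genes split. Tagln (SM22), an actin-binding protein of smooth muscle that other cells also make when they spread, was -0.38, -0.82, -0.37, -0.84 and -0.69 on control arrays. It was 0.15, 1.53, 1.64, 1.71 and 0.15 on saline arrays and 2.59, 2.67, 1.99, 1.58, 2.40 and 1.95 on hUMSC arrays 5 to 10. All occluded arrays lay above all controls, with saline replicates 1 and 5 lowest among them. The mean was 3.15-fold higher in saline (1.66 ± 0.32) and 7.03-fold higher in hUMSC (2.81 ± 0.30) than in control, both called. The former difference was 2.25 without both saline replicates 1 and 5. It was 2.23-fold higher in hUMSC than in saline (1.16 ± 0.30), also called, with 5 of 6 hUMSC arrays above all saline arrays. That difference was not past the threshold without saline replicate 1 (0.94), saline replicate 5 (0.94), hUMSC replicate 5 (1.08), hUMSC replicate 6 (1.06) or hUMSC replicate 7 (1.20), and was 0.57 without both saline replicates 1 and 5.

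Acta2, smooth muscle actin, was -2.78, -2.98, -2.66, -2.47 and -2.49 on control arrays, -2.75, -2.60, -2.62, -2.14 and -2.41 on saline arrays and -2.38, -2.43, -2.35, -2.76, -2.30 and -1.71 on hUMSC arrays 5 to 10. The groups overlapped, though 5 of 6 hUMSC arrays lay above all controls, and the highest array was hUMSC replicate 10. The differences were 0.17 ± 0.17 in saline against control, 0.18 ± 0.16 in hUMSC against saline and 0.36 ± 0.16 in hUMSC against control, none past the threshold. The last was past it in 3 of 24 other settings: without hUMSC replicate 8 (0.44), within slide 1 and with array weights. Myh11, the smooth muscle myosin heavy chain, had means of -1.33 ± 0.16 (SD, n = 5) in control, -1.29 ± 0.19 (SD, n = 5) in saline and -1.38 ± 0.17 (SD, n = 6) in hUMSC, with differences of 0.05 ± 0.11, -0.09 ± 0.10 and -0.05 ± 0.10 (SE) in the order above. A further probe of Myh11, well above background on all 16 arrays, gave 0.09, -0.01 and 0.08. Tagln thus stood far from Acta2 and Myh11, although the 3 are textbook markers of the same cell.

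Likeness to other genes was measured by the Pearson correlation of log2 levels over the 16 arrays with each of 12609 other tested genes that have a symbol, as a description in which the group differences take part. The genes most like Tagln, added after their values were seen, were Nek6 (0.992), a mitotic kinase, Gfap (0.991), the astrocyte filament, Rras (0.990), Flna (0.990), an actin crosslinker, and Ppp1r14b (0.989). With deviations from group means the first was Nes (nestin, 0.978), a filament of reactive astrocytes and of progenitors. For Kcnj8 they were Rps6ka3 (0.914), a kinase of the MAP kinase pathway, Gjc1 (0.876), a connexin of mural cells, Mcam (0.869), a surface protein of pericytes and endothelium, Vstm4 (0.868) and Rars2 (0.866). With deviations they were Nagk (0.921), Sox7 (0.912), Syne3 (0.908), Sfnl1 (0.896) and Firrm (0.886), none of which was among the first. For Acta2 the first were Raver1 (0.908), Rcc1 (0.886) and Kcne4 (0.842).

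Other contractile genes of smooth muscle were taken as companions by their function. Of 14 tested, 6 rose and 1 fell in saline against control (50% called, median log2 difference 0.50), 1 rose in hUMSC against saline (7.14% called, median 0.28), and 9 rose and 2 fell in hUMSC against control (78.6% called, median 0.80). Of all genes 27.3%, 12.8% and 62% were called in the same order, with 14.3%, 4.86% and 24.7% higher. Des (desmin), the muscle filament, was -3.22 to -2.72 on control arrays, -2.51 to -1.46 on saline arrays and -1.73 to -0.87 on hUMSC arrays. It rose by 1.09 ± 0.21 in saline (limma, adjusted p = 0.00269) and by 1.80 ± 0.20 in hUMSC (adjusted p = 7.75e-06) against control, with no overlap. Its rise of 0.71 ± 0.20 from saline to hUMSC (adjusted p = 0.0348) was not past the threshold without saline replicate 1 (0.63), saline replicate 5 (0.55), hUMSC replicate 5 (0.66), hUMSC replicate 6 (0.70) or hUMSC replicate 7 (0.69), and was 0.39 without both saline replicates 1 and 5. Actg2, the enteric smooth muscle actin, rose by 1.41 ± 0.40 in saline (adjusted p = 0.0189; 1.29 and not past the threshold without saline replicate 4) and by 1.52 ± 0.38 in hUMSC (adjusted p = 0.00304) against control. Pln, the phospholamban of the calcium store, was the 1 that fell in saline against control, by 0.45 ± 0.12 (adjusted p = 0.0121). Cnn1 (calponin), also a contractile gene, had a dim probe that was not well above background on 3 of 5 control, 2 of 5 saline and 1 of 6 hUMSC arrays, so its differences are imprecise. It differed by 0.51 ± 0.43 in saline (adjusted p = 0.393) and rose by 1.08 ± 0.41 in hUMSC (adjusted p = 0.0329) against control, and within slide 2 the latter was -0.05. That rise was not past the threshold without control replicate 1 (1.04), 2 (0.91) or 3 (0.91), or without hUMSC replicate 5 (0.93), 6 (0.91) or 10 (1.03). The 10 fibroblast genes averaged -1.34 to -1.20 on control arrays, -1.02 to 0.40 on saline arrays and -0.33 to 0.95 on hUMSC arrays. Their part in these rises was not tested.

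**Figure D4:**
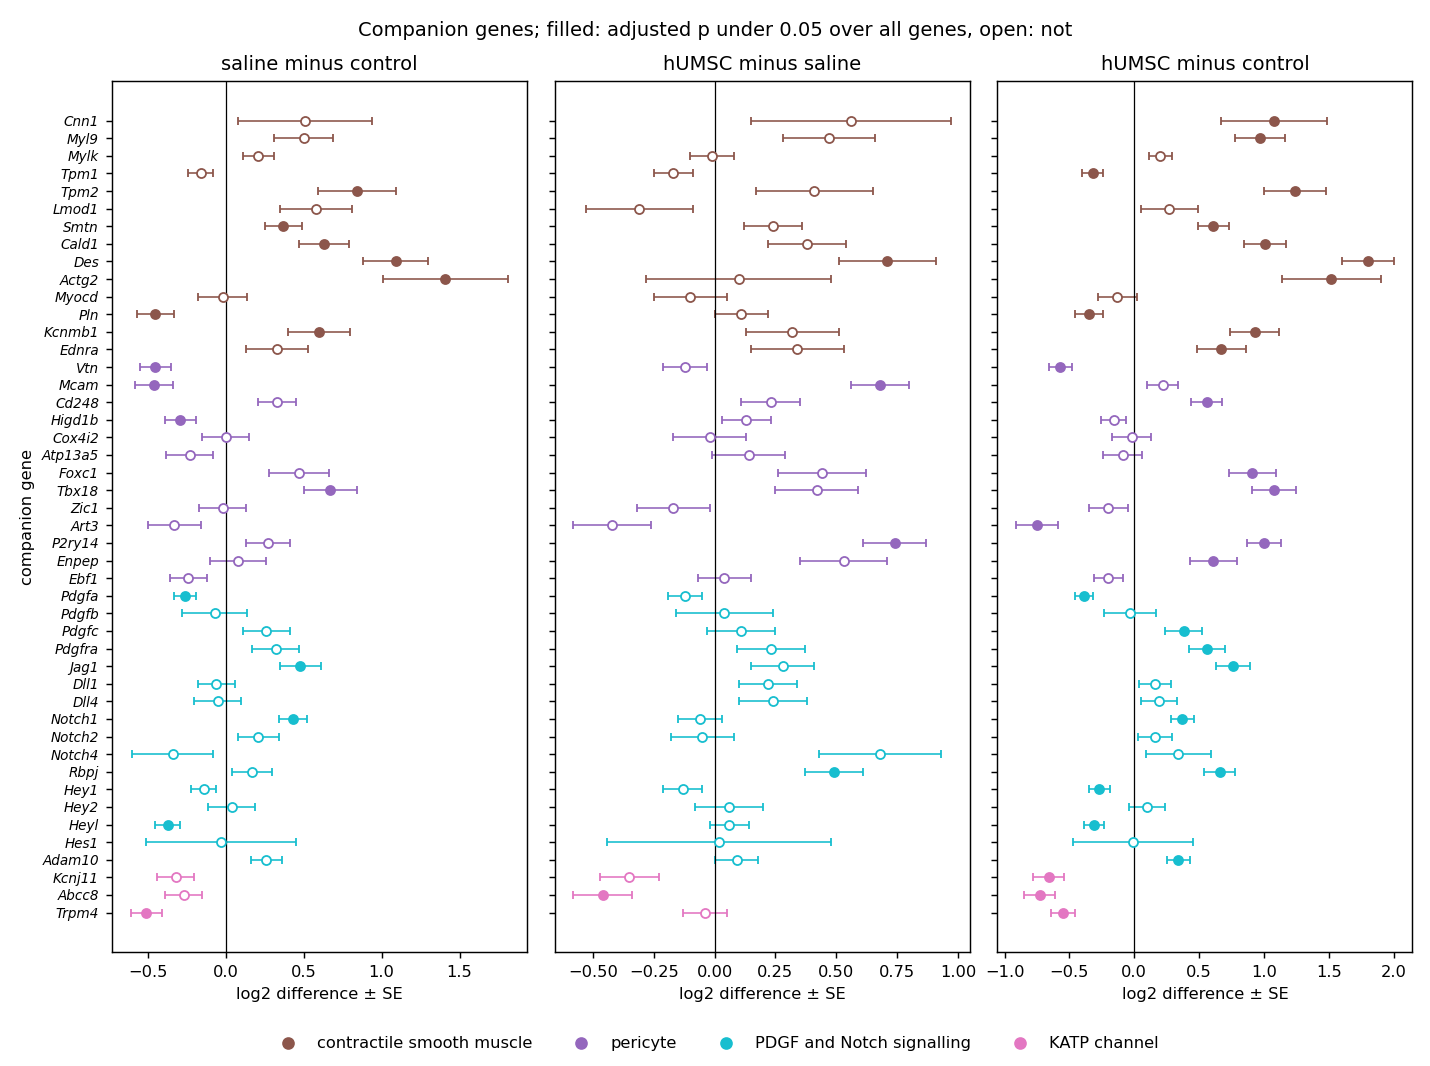
Log2 difference of group means (± SE) of 46 companion genes in the 3 comparisons, coloured by list, with filled points past an adjusted p of 0.05 over all genes. In hUMSC against saline 5 points are filled, Des, Mcam, P2ry14, Rbpj and Abcc8, and in hUMSC against control 30 are.

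Companions that mark pericytes also moved in both directions. Of 13 tested, 1 rose and 3 fell in saline against control (median -0.02), 2 rose in hUMSC against saline (median 0.14), and 5 rose and 2 fell in hUMSC against control (median -0.02). Thus 30.8%, 15.4% and 53.8% were called, where 27.3%, 12.8% and 62% of all genes were. Vtn (vitronectin), made in brain mostly by pericytes, fell by 0.45 ± 0.10 in saline (limma, adjusted p = 0.00582) and by 0.57 ± 0.09 in hUMSC (adjusted p = 0.000142) against control, and differed by -0.12 ± 0.09 between them (adjusted p = 0.352). Higd1b, a mitochondrial gene of pericytes, fell by 0.29 ± 0.10 in saline against control (adjusted p = 0.046), and was not past the threshold, at -0.32 to -0.22, when any 1 control array or any 1 of saline replicates 2 to 5 was left out. Tbx18, a transcription factor of mural cells, rose by 0.67 ± 0.17 in saline (adjusted p = 0.0138) and by 1.08 ± 0.17 in hUMSC (adjusted p = 8.71e-05) against control. P2ry14, a receptor for nucleotide sugars, rose by 0.74 ± 0.13 from saline to hUMSC (adjusted p = 0.0106). It was -4.39 to -3.76 on saline arrays and -3.57 to -2.94 on hUMSC arrays, higher on 6 of 6. Without both saline replicates 1 and 5 this rise was 0.56 and not past the threshold.

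Mcam (CD146) was lower in saline than in control and higher in hUMSC than in saline. It was among the genes most like Kcnj8 in level, a likeness in which these group differences take part. It was 0.83, 0.68, 0.86, 0.76 and 0.88 on control arrays, 0.03, 0.60, 0.55, 0.35 and 0.18 on saline arrays and 1.32, 1.27, 1.06, 0.79, 0.80 and 0.88 on hUMSC arrays 5 to 10. It fell by 0.46 ± 0.12 in saline against control (limma, adjusted p = 0.0159) and rose by 0.68 ± 0.12 from saline to hUMSC (adjusted p = 0.00969), with no overlap in either. In hUMSC against control it differed by 0.22 ± 0.12 (adjusted p = 0.122) and the groups overlapped. Without both saline replicates 1 and 5 the first value was -0.30 (adjusted p = 0.0638) and the second 0.52 (adjusted p = 0.115).

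Kdr, the main VEGF receptor of endothelium, was 0.47 to 1.00 on control arrays, -0.10 to 0.46 on saline arrays and 0.55 to 1.47 on hUMSC arrays. It fell by 0.51 ± 0.16 in saline against control (limma, adjusted p = 0.0303) and rose by 0.78 ± 0.15 from saline to hUMSC (adjusted p = 0.0145). The fall was not past the threshold without control replicate 1 (-0.51), 3 (-0.44) or 5 (-0.49), or without saline replicate 1 (-0.43), 2 (-0.51) or 3 (-0.49), and the rise was not past it without saline replicate 1 (0.70). Without both saline replicates 1 and 5 the fall was -0.44 (adjusted p = 0.0673) and the rise 0.72 (adjusted p = 0.136). Of 14 endothelial genes 7 rose and 0 fell in hUMSC against saline (50% called, median 0.49), with 10 past 0.05 before adjustment, where 12.8% of all genes were called, 4.86% higher and 7.96% lower. The count of 7 called was 0 without saline replicate 1 and 1 without saline replicate 5 or hUMSC replicate 5, 6 or 7, and 0 without both saline replicates 1 and 5. In saline against control 2 rose and 1, Kdr, fell (21.4% called, against 27.3% of all genes). Those that rose were Eng, by 1.07 ± 0.27 (limma, adjusted p = 0.0115), and Slc2a1, by 0.47 ± 0.13 (adjusted p = 0.0157). In hUMSC against control 10 rose and 0 fell (71.4% called, against 62% of all genes). Kdr was not among them, at 0.27 ± 0.15 (adjusted p = 0.133). These 14 genes averaged -1.74 to -1.53 on control arrays, -1.77 to -1.32 on saline arrays and -1.45 to -0.76 on hUMSC arrays, and their part in the difference of Kcnj8 was not tested.

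**Figure D5:**
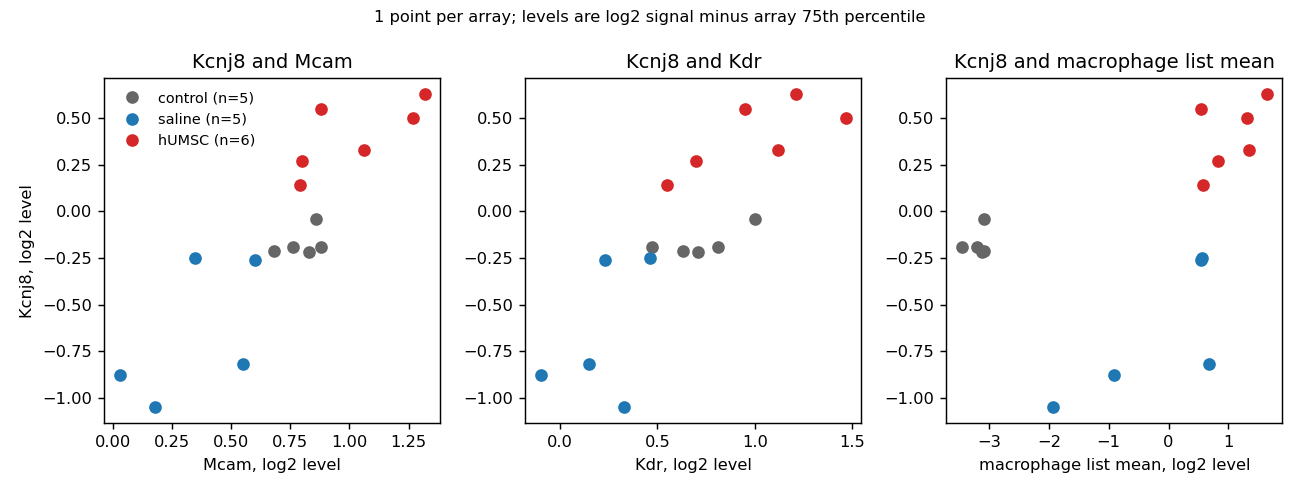
Log2 level of Kcnj8 against that of Mcam, of Kdr and of the mean of 11 macrophage and dendritic cell genes, with 1 point per array for 5 control, 5 saline and 6 hUMSC arrays. Kcnj8 on saline arrays (-1.05 to -0.25) and hUMSC arrays (0.14 to 0.63) does not overlap. Macrophage means run from -1.94 to 0.68 on saline arrays and from 0.55 to 1.65 on hUMSC arrays, and their part in the level of Kcnj8 was not tested.

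Over all 46 companions 9 rose and 7 fell in saline against control (34.8% called, against 27.3% of all genes). From saline to hUMSC 4 rose and 1 fell (10.9%, against 12.8% of all genes). In hUMSC against control 20 rose and 10 fell (65.2%, against 62% of all genes). The count of 5 in hUMSC against saline was 2 without saline replicate 1, saline replicate 5 or hUMSC replicate 5, 6 or 7, 10 without saline replicate 2 and 13 without hUMSC replicate 8. The count of 16 in saline against control was 25 without saline replicate 5 and 10 without saline replicate 4. The count of called members in hUMSC against saline was 1, Kcnj8, without saline replicate 1, saline replicate 5 or hUMSC replicate 5, 6 or 7, and it was also 1 where the controls were left out of the fit, which then called 41 genes in all.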

How the data were processed

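Expression was measured in 16 samples on single-colour Agilent arrays with 62976 spots. Per the file headers, the authors' scanner files give each spot's intensity after background subtraction and detrending by Feature Extraction 11.0.1.1, unscaled between arrays, together with spot marks. The submitters' processing notes name version 100.0.1.1. The deposited value table holds intensity as well, equal to the mean processed signal of a probe's spots (largest relative difference 2e-10).

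Spots marked as outliers were dropped and log2 signals averaged by probe. Each array's 75th percentile was then taken off. Of 30367 probes, 18355 matched a RefSeq symbol by unversioned accession. Probes well above background on at least 5 arrays were tested, with the brightest probe for each gene. A limma model (limma 3.58.1, R 4.3.3) of the 3 group means (13 residual degrees of freedom) gave two-sided tests, adjusted by Benjamini-Hochberg over 20471 genes. The number of arrays limits the precision. Nothing says that samples of a group came from separate surgeries, so p-values measure the spread between these samples. The script was tested on simulated data.

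Members and lists were chosen with earlier results of these data known. Named were all members, Kcnj11, Abcc8, Pdgfb, Jag1, Des, Cnn1 and Vtn, genes most like Kcnj8 and Acta2, and genes from up to 3 per list and comparison: those called with the largest changes and a probe well above background throughout the higher group. Higd1b and Pln were added after their values were seen. Of 53 companions, 46 were tested. In hUMSC against control, where 62% of all genes were called, 5 of 7 microglial genes were higher and 5 of 7 oligodendrocyte genes lower. Of 7 astrocyte genes 2 were higher and 3 lower, of 7 blood genes 2 were higher, and of 9 meningeal and choroid plexus genes 2 were higher and 1 lower. Alternatives covered background, scaling, filters, probes, slides, array weights and left-out arrays.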

Additional observations from a re-analysis of the deposited data

Results flagged for a closer look

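Kcnj8 on control replicate 3 was -0.04, apart from the other controls, the nearest of which was at -0.19. Notch3 on hUMSC replicate 10 was -3.34, apart from the other hUMSC arrays, the nearest of which was at -3.62. These were the 2 gaps past Dixon's limit among 30 combinations of gene and group, and chance alone flags about 1 in 20.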

How the results depend on the processing

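Without 1 array at a time, genes called numbered 3218 to 7604 in saline against control (5581 with all arrays), 183 to 4260 in hUMSC against saline (2624) and 11891 to 12942 in hUMSC against control (12700). Members called numbered 3 to 4, 1 to 4 and 5 to 6, companions 10 to 25, 2 to 13 and 28 to 30. Endothelial genes called in hUMSC against saline numbered 0 to 10 (7 with all arrays). In hUMSC against saline, no filter on dim probes gave 1363 genes and 4 endothelial genes, and the slide as a block 6390 genes and 15 companions. Fitting only the groups compared gave 41 genes (5813 before adjustment), 1 member, 0 companions (11 before) and 0 endothelial genes (9 before). Array weights gave 122 (4362 before), 1, 1 and 0 (8 before). Leaving out hUMSC replicates 5 and 6, chosen after seeing the data, gave 141 (4599 before), 1, 1 and 0 (8 before). Leaving out saline replicates 1 and 5, chosen likewise, gave 23 (2694 before), 1, 0 (10 before) and 0 (8 before). In saline against control, array weights gave 9247 genes, 30 companions and 5 endothelial genes, and leaving out those saline replicates 9041 genes and 28 companions.

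Within slide 1, limma called 3052 genes and 9 companions in saline against control, and 1039 genes and 1 member in hUMSC against saline. Within slide 2 it called 1 gene in saline against control (2455 before adjustment), 0 members (1 before), 0 companions (11 before) and 0 endothelial genes (2 before). In hUMSC against saline it called 0 genes there (3186 before), 0 members (4 before), 0 companions (9 before) and 0 endothelial genes (2 before). In hUMSC against control it called 6184 genes, 3 members, 14 companions and 6 endothelial genes, and Cnn1 turned to -0.05. Slides hold fewer arrays, and other causes of these shifts were not tested.

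With the replicate number as a block, 3209 genes were called in saline against control, and Kcnj8 (-0.48) was not among them. Same-numbered arrays correlated at -0.05 to 0.18 in their deviations, and 2 of 5 correlated best with their own number. The labels do not say what a number stands for, and the samples were not treated as paired. The comparisons with hUMSC could not be paired, since those arrays share fewer than 2 numbers with the other groups.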
